A study of Mus musculus with 4 samples.

Results

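Heparan sulfate proteoglycans are core proteins that carry long sulfated sugar chains, and the syndecans and glypicans hold these chains at the cell surface. Syndecans cross the membrane, whereas glypicans are tethered to it by a lipid (GPI) anchor. In brain tissue, as elsewhere, FGF2 needs heparan sulfate to bind its tyrosine kinase receptors stably, so that these core proteins are described as coreceptors of FGF signalling.

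The levels of the 4 syndecan genes (Sdc1 to Sdc4) and the 6 glypican genes (Gpc1 to Gpc6) were compared between cultures with and without FGF2. These 10 genes were chosen by name, as the mouse members of both families, from the 55421 genes listed in each library, and all 10 passed the expression filter. The cultures were made from prefrontal cortex (PFC) tissue of newborn (P0) wild-type C57BL/6 mice, which was dissociated to single cells and kept for 10 days in neurobasal medium with B27. FGF2 was added at 5 ng/mL to the treated cultures and left out of the control cultures, with 2 bulk RNA-seq libraries in each group. The methods of the study state technical replicates for all but some human samples, in a passage that names only human cultures. The titles of the mouse libraries end in B1 or B2, and no label names separate cultures. Whether the libraries of a group came from separate cultures is thus not known. Each p-value is therefore read as covering technical spread, not the spread between cultures or animals. Levels are given in CPM (the counts of a gene scaled to the library's total on genes, with TMM factors), and fold changes are FGF2 over no FGF2.

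The cultures held neuronal and glial RNA, and the balance of their markers differed between the groups. A marker is said to rise or fall at an adjusted p-value below 0.05 in the edgeR test described below. Among all 17144 tested genes, 20.7% rose and 19.9% fell. All 6 neuron markers (Tubb3, Map2, Rbfox3, Snap25, Syt1 and Stmn2) fell with FGF2, with a summed level of 2662 to 2698 CPM against 3678 to 3702 CPM without FGF2. Each of the 7 cortical excitatory neuron markers had counts in every library, and 3 of them fell (Tbr1, Bcl11b and Neurod2), with a summed level of 297 to 307 CPM against 414 to 419 CPM. Of 7 astrocyte markers 6 rose, with 11751 to 11850 CPM in sum against 7048 to 7097 CPM, and S100b did not pass (edgeR adjusted p = 0.22). Gfap had the highest level in this sum, with 5929 and 5626 CPM with FGF2 and 2774 and 2763 CPM without. Of 8 oligodendrocyte lineage markers 7 were tested and 7 rose, with 1508 to 1530 CPM against 477 to 492 CPM. The other lists were low, with 10.0 to 11.1 CPM against 4.42 to 4.56 CPM for 6 microglia markers, of which 2 were tested and 2 rose. The 6 fibroblast and mural markers summed to 53.3 to 57.5 CPM against 47.5 to 48.3 CPM, with 1 higher and 2 lower of 5 tested. Most of this sum was the mural marker Pdgfrb, which rose (49.0 and 46.4 CPM with FGF2, 28.6 and 28.8 CPM without). The collagen genes Col1a1 and Col1a2 were scarce and fell, with log2 fold changes of -2.18 and -1.73. The 6 endothelial markers summed to 7.71 to 9.89 CPM against 4.94 to 8.47 CPM, with 1 higher and 1 lower of 3 tested and Cldn5 at 0 counts in all libraries. In these bulk libraries fewer cells of a type and less RNA per cell cannot be told apart, and the part of this shift in the results below was not tested.

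The family did not move in one direction. Sdc4, Sdc2 and Gpc4 rose with FGF2, while Sdc3, Gpc1 and Sdc1 fell, and the remaining 4 glypicans did not pass the test. Thus 6 of the 10 genes had an adjusted p-value below 0.05 (edgeR quasi-likelihood test, Benjamini-Hochberg adjustment over all tested genes), against 40.5% of the 17144 genes tested. By direction, 3 rose against a background of 20.7%, and 3 fell against a background of 19.9%. With DESeq2, Sdc4, Sdc3 and Gpc1 passed, against 23.2% of all genes with an adjusted p-value from DESeq2. The libraries of both groups did not overlap for 9 of the 10 genes, against 67.1% of the tested genes. Of these 9, 4 were higher with FGF2, against 33.6% of the tested genes, and 5 were lower, against 33.4%. The median log2 fold change was 0.03 over the 10 genes and -0.00076 over all tested genes.

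**Figure D1:**
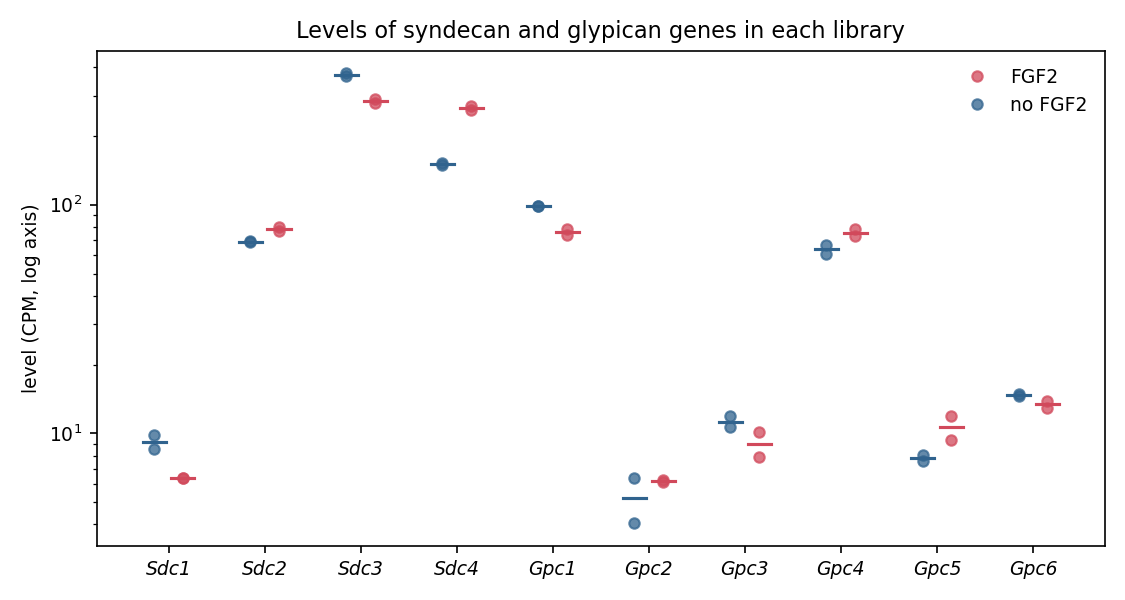
Level of each syndecan and glypican gene in CPM on a log axis, with a point for each of the 4 libraries and a bar at the mean of each group (n = 2). The points of both groups lie apart for each gene other than Gpc2, and Sdc4 lies between 149 and 152 CPM without FGF2 and between 258 and 269 CPM with FGF2.

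Sdc4 changed most among these genes. It encodes syndecan-4, a widely expressed syndecan of focal adhesions that binds protein kinase C alpha, and lies on chromosome 2 of mm10 from 164424247 to 164443887. Sdc4 had 269 and 258 CPM in the libraries with FGF2 and 149 and 152 CPM in those without FGF2. Both treated libraries were well above both control libraries, with means of 264 ± 7.86 and 151 ± 2.22 CPM (SD, n = 2). This corresponds to a log2 fold change of 0.81 (standard error 0.05, edgeR adjusted p = 1.3e-58), or 1.75-fold. Among all tested genes, 13.0% had a larger absolute log2 fold change.

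In contrast, Sdc3 fell. Sdc3 encodes syndecan-3, the main syndecan of neural tissue and a receptor for pleiotrophin, and lies on chromosome 4 from 130792537 to 130826319. It had 291 and 277 CPM with FGF2 and 364 and 376 CPM without FGF2. The treated libraries were below the control libraries, with means of 284 ± 9.77 and 369.7 ± 8.41 CPM (SD, n = 2). The log2 fold change of Sdc3 was -0.38 (standard error 0.04, edgeR adjusted p = 2.7e-18).

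Sequences next to the start sites of these 2 genes are shown because they had the smallest adjusted p-values and moved in opposite directions. They are the 250 bases before the RefSeq start site (GRCm38.p6, the build also called mm10), in the direction of the gene. For Sdc3 this window lies just before the gene as GENCODE draws it. For Sdc4 it lies inside the GENCODE span given above, because the gene as GENCODE draws it starts farther upstream than the RefSeq start site. Capitals mark the letters of the motifs found, which were a GC box (GGGCGG or its reverse complement) and an ETS core (CCGGAA or its reverse complement).
Sdc4 (chr2:164443189-164443438, minus strand): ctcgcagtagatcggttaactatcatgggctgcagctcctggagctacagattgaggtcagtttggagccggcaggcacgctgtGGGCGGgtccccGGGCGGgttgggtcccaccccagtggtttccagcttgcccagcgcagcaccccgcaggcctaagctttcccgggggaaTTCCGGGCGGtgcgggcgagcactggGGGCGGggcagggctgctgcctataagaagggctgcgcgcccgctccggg
Sdc3 (chr4:130792287-130792536, plus strand): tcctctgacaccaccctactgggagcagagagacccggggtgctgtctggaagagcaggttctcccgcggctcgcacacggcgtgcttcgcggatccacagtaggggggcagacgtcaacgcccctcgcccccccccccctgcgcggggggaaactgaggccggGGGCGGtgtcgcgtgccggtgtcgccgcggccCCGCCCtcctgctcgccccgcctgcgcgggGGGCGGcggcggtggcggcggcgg

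The Sdc4 sequence held 4 GC boxes and an ETS core, which begins 76 bases before the start site and overlaps the GC box that follows it. The Sdc3 sequence held 3 GC boxes and no ETS core. GC boxes were found in all 7 of the 10 genes whose upstream sequence was at hand, and in 32.7% of 32851 RefSeq upstream sequences of the same length. An ETS core, searched because ETS factors act below FGF receptors, was found in 1 of these 7 genes and in 12% of all sequences. Letters of the AP-1 (TGANTCA), cAMP response (TGACGTCA) and NF-kB motifs were found in 0 of the 7 genes on either strand, and in 6.75%, 1.55% and 0.98% of all sequences. The letters TATAAA of a TATA box were also searched on either strand and at any place in the window. They were found only in Gpc5, as the reverse complement TTTATA that begins 185 bases before the start site, and in 12.4% of all sequences. Other forms of a TATA box were not searched. The GC content was 68.0% for Sdc4 and 76.4% for Sdc3, and the median over all sequences was 52.4%. These matches describe the letters of the windows, and binding was not measured.

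The other syndecans moved less clearly. Sdc2, a syndecan of mesenchymal cells that also takes part in dendritic spine formation, lies on chromosome 15 from 32920723 to 33034935. It had 80.1 and 76.9 CPM with FGF2 and 69.1 and 68.4 CPM without FGF2, so that the groups did not overlap. The log2 fold change was 0.19 (standard error 0.08, edgeR adjusted p = 0.031). Sdc1, a syndecan best known from epithelia and plasma cells, lies on chromosome 12 from 8771323 to 8793715 and was scarce here, with 58 to 104 counts per library. It had 6.38 and 6.39 CPM with FGF2 and 9.87 and 8.57 CPM without FGF2, also without overlap. The log2 fold change of Sdc1 was -0.53 (standard error 0.22, edgeR adjusted p = 0.038). Neither call held with DESeq2, which gave adjusted p = 0.29 for Sdc1 and 0.24 for Sdc2, nor with all choices of libraries. Sdc1 no longer passed with any of the 4 libraries left out (log2 fold change between -0.63 and -0.43), and Sdc2 passed only when FGF2 replicate 2 was the library left out (0.16 to 0.22 over the 4 choices).

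**Figure D2:**
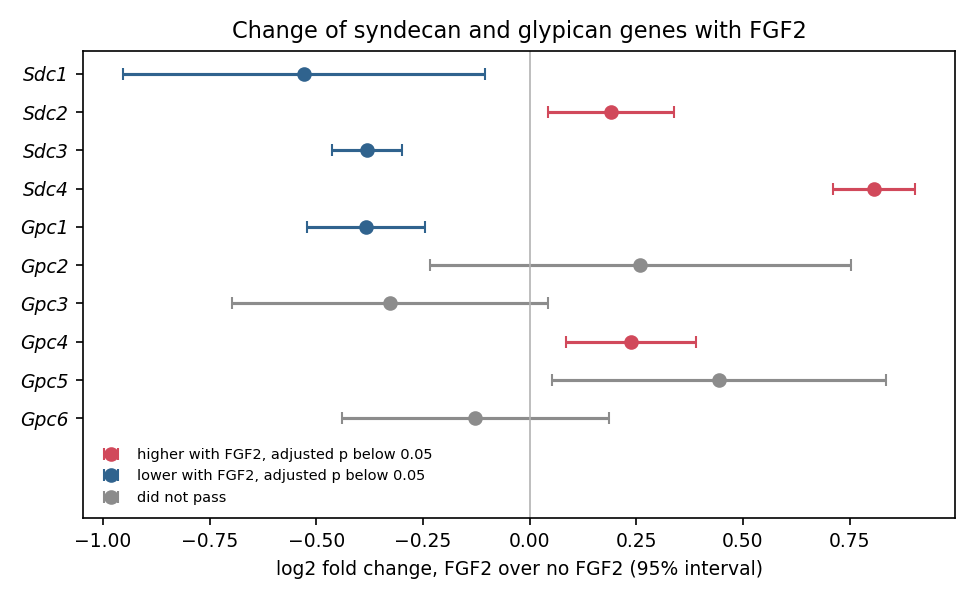
Log2 fold change of each syndecan and glypican gene (FGF2 over no FGF2, 2 libraries per group) with its 95% interval from the edgeR fit. Sdc4 at 0.81 and Sdc3 at -0.38 have narrow intervals on either side of 0, whereas the intervals of Gpc2, Gpc3 and Gpc6 include 0.

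Among the glypicans, Gpc1 fell and Gpc4 rose. Gpc1, a glypican of brain and a binding partner of Slit proteins, lies on chromosome 1 from 92831645 to 92860779. It had 77.9 and 73.5 CPM with FGF2 and 98.5 and 99.0 CPM without FGF2. The treated libraries were lower without overlap, and the log2 fold change was -0.38 (standard error 0.07, edgeR adjusted p = 3.6e-07). Ankmy1 on the opposite strand covers 18.9% of the exonic bases of Gpc1 and had 5 to 10 counts per library. The counting kept the strands apart, since counts were found for 4 of 693 genes that lie almost wholly under a same-strand gene and for 164 of 477 that lie under an opposite-strand gene.

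Gpc4 is known as a protein that astrocytes release and that promotes the formation of excitatory synapses. It lies on chromosome X from 52053021 to 52165252 and had 78.0 and 72.7 CPM with FGF2 and 61.1 and 66.6 CPM without FGF2. The groups did not overlap, and the log2 difference was 0.24 (standard error 0.08, edgeR adjusted p = 0.007). DESeq2 gave adjusted p = 0.14 for Gpc4. With edgeR, the call was lost without FGF2 replicate 1 (log2 fold change 0.18) and without no FGF2 replicate 1 (0.17).

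The remaining 4 glypicans had few counts, 44 to 158 per library, and none passed the test with edgeR or DESeq2. Gpc5 on chromosome 14 (115092215 to 116525179) had 11.98 and 9.33 CPM with FGF2 and 7.59 and 8.01 CPM without FGF2. Its log2 fold change was 0.44 (95% interval 0.05 to 0.84, edgeR adjusted p = 0.063), and it passed without FGF2 replicate 2 (0.61, edgeR adjusted p = 0.024). Gpc6, another glypican that astrocytes release, lies 400.1 kb from Gpc5 (116925315 to 117976544). It had 13.0 and 13.9 CPM with FGF2 and 14.8 and 14.6 CPM without FGF2, with a log2 fold change of -0.13 (95% interval -0.44 to 0.19, edgeR adjusted p = 0.57). These neighbours on chromosome 14 were thus on either side of 0, without a test of their difference.

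Gpc3, a glypican that restrains body growth through Hedgehog signalling, lies 107 kb from Gpc4 on chromosome X (52272426 to 52613950). It had 10.1 and 7.91 CPM with FGF2 and 11.9 and 10.7 CPM without FGF2. Although the libraries did not overlap, the log2 fold change of -0.33 had a 95% interval from -0.70 to 0.04 (edgeR adjusted p = 0.16). Gpc2, a glypican of growing axons in the developing nervous system, lies on chromosome 5 (138273655 to 138280005). It had 6.16 and 6.29 CPM with FGF2 and 6.36 and 4.05 CPM without FGF2, and it alone overlapped between the groups. The log2 fold change of Gpc2 was 0.26 (95% interval -0.23 to 0.75, edgeR adjusted p = 0.44) and -0.04 without no FGF2 replicate 2. Gm43720 on the same strand shares 55.6% of the exonic bases of Gpc2, and reads that fit more than one gene were tallied as ambiguous, so the level of Gpc2 is a lower limit.

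The levels of different genes were compared per length, as RPKM (CPM per kilobase of merged exons). This comparison is a description and has no test. Without FGF2, Sdc3 and Sdc4 stood at the top with 61.7 ± 1.40 and 59.2 ± 0.87 RPKM (SD, n = 2), and with FGF2 their order was turned, with 47.4 ± 1.63 and 104 ± 3.09 RPKM. The ratio of Sdc4 to Sdc3 was 0.964 and 0.953 in the libraries without FGF2 and 2.18 and 2.19 in those with FGF2. Below them, the same order held in both groups. Gpc4 had 28.4 RPKM with FGF2 and 24.1 RPKM without FGF2, Sdc2 had 22.3 and 19.5 RPKM, and Gpc1 had 14.7 and 19.1 RPKM. Sdc2 and Gpc1 were close without FGF2, and their order there turned with the length of the longest transcript in place of merged exons.

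The other 5 genes lay between 1.22 and 4.19 RPKM in both groups, and Gpc3 had the highest value. Gpc2 had the smallest values, 1.46 RPKM with FGF2 and 1.22 RPKM without FGF2, but as these are lower limits it has no place in the order. Gpc5 and Gpc6 overlapped over the libraries with FGF2 (2.39 and 2.09 RPKM), as did Sdc1 and Gpc6 over those without FGF2 (2.42 and 2.29 RPKM). In sum, the syndecans had 175 ± 5.37 RPKM with FGF2 and 143 ± 1.90 RPKM without FGF2. The glypicans had 52.4 ± 2.90 and 52.7 ± 0.872 RPKM, which differed by less than the spread between libraries. The glypican sums, and all shares given below, take Gpc2 at its lower limit. In CPM, which gives long transcripts more weight, the syndecans summed to 633 ± 19.9 and 598 ± 9.23 CPM, a ratio of 1.06 against 1.23 in RPKM. The glypican sums were 197 and 184 CPM with FGF2 and 200.3 and 203 CPM without FGF2, so that on this scale both treated libraries were lower.

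**Figure D3:**
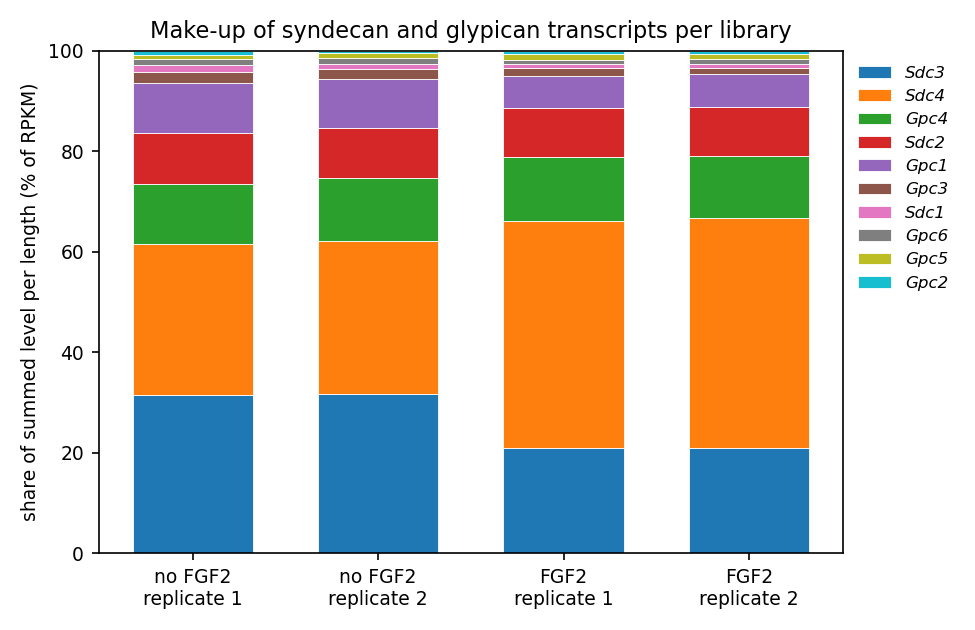
Share of each gene in the summed RPKM of the 10 syndecan and glypican genes, in percent, for each of the 4 libraries. The Sdc4 share is 30.3% in both libraries without FGF2 and 45.4% and 45.8% with FGF2, while the Sdc3 share is 31.4% and 31.8% without FGF2 and 20.8% and 20.9% with FGF2.

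As shares of the summed RPKM of all 10 genes, Sdc4 had 45.6% with FGF2 and 30.3% without FGF2, and Sdc3 had 20.9% and 31.6%. The Gpc1 share was 6.46% with FGF2 and 9.79% without FGF2. Gpc4 had 12.5% and 12.3%, and Sdc2 had 9.79% and 9.98%. Within the glypicans, Gpc4 made up 54.1% and 54.5% of the sum with FGF2 and 44.3% and 47.1% without FGF2.

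The genes around these core proteins were then compared in 8 lists, from chain synthesis to partners of the core proteins. Of 86 genes 75 were tested, of which 23 rose and 20 fell (edgeR adjusted p below 0.05), or 57.3%, against 40.5% of all tested genes. Of the 12 enzyme genes for the linker and the sugar backbone, 0 rose, 3 fell and 9 did not pass, with a median log2 fold change of -0.10. The share called was 25%, below the 40.5% of all tested genes, of which 19.9% fell. Pxylp1, a phosphatase that acts on xylose of the linker, had 20.4 and 16.5 CPM with FGF2 and 29.2 and 25.5 CPM without FGF2 and fell by 0.57 on the log2 scale. Extl3, a glycosyltransferase that starts the heparan sulfate chain, fell by 0.29, and Fam20b, the kinase of the linker xylose, fell by 0.19 (edgeR adjusted p = 0.02). The call of Fam20b was lost with DESeq2 (adjusted p = 0.19), without FGF2 replicate 2 (-0.18) and without no FGF2 replicate 2 (-0.12). Xylt1, which adds the first sugar, had 159 and 164 CPM against 158 and 157 CPM and did not pass (edgeR adjusted p = 0.66), nor did Ext2, a chain polymerase (adjusted p = 0.30).

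The genes of chain sulfation and of its sulfate donor moved in both directions. Of 19 tested, 6 rose and 6 fell, or 63.2%, against 40.5% of all tested genes. Papss2, a synthase of the sulfate donor PAPS, had 97.7 and 105 CPM with FGF2 and 25.8 and 24.2 CPM without FGF2. The libraries were far apart, and the log2 difference was 2.02 (standard error 0.09, edgeR adjusted p = 1.9e-115), or 4.06-fold. Of the genes that follow, those outside the rule for named genes were chosen after their values were seen. Papss1, the other PAPS synthase, rose by 0.32 on the log2 scale, and Slc35b2, the Golgi carrier of PAPS, rose by 0.56 (edgeR adjusted p = 2e-05 and 1.6e-07). The N-sulfating enzymes Ndst1 and Ndst2 rose by 0.30 each, while Ndst3 (0.13, edgeR adjusted p = 0.35) and Ndst4 (0.15, edgeR adjusted p = 0.61) did not pass.

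Among enzymes that act later on the chain, Glce, the epimerase that makes iduronic acid, fell from 69.5 and 70.7 CPM to 46.3 and 41.4 CPM, by 0.68 on the log2 scale (standard error 0.09, edgeR adjusted p = 2.1e-14). Hs2st1 fell by 0.25, Hs6st1 fell by 0.21 and Hs6st3 fell by 0.56, which add sulfate at the 2-O and 6-O positions. Hs6st2 did not pass (-0.13, edgeR adjusted p = 0.42). Of the 3-O-sulfating enzymes, Hs3st1 fell by 0.80 and Hs3st2 fell by 0.67, whereas Hs3st3a1 rose by 0.59 (edgeR adjusted p = 0.044). Hs3st3b1 (0.14), Hs3st4 (-0.50) and Hs3st5 (-0.53) did not pass (edgeR adjusted p = 0.60, 0.054 and 0.27), and Hs3st6 was too low to test. Hs3st4 passed with total count scaling (-0.52), without FGF2 replicate 2 (-0.73) and without no FGF2 replicate 2 (-0.67). With DESeq2, Ndst2, Hs6st1, Hs6st3 and Hs3st3a1 no longer passed, with adjusted p = 0.26, 0.27, 0.14 and 0.32. With a library left out, the calls of these 4 genes and of Hs2st1 (-0.20 without no FGF2 replicate 1) were lost at least once, and Ndst2 came to 0.17 without no FGF2 replicate 2. Hs6st1 came to -0.13 without FGF2 replicate 2 and -0.12 without no FGF2 replicate 1. Hs3st3a1 also lost its call with total count scaling (0.58), with limma-voom (0.59) and without the filter on low counts (0.60), as did Hs6st1 without that filter (-0.20). At an adjusted p threshold of 0.01, Ndst2, Hs6st1 and Hs3st3a1 did not pass.

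Of 4 genes for enzymes that edit finished chains outside the cell, 2 were tested and 2 rose, against 20.7% of all tested genes that rose. Sulf1 and Sulf2 are sulfatases that remove 6-O-sulfate and are known to dampen FGF2 signalling. Sulf1 had 15.9 and 15.8 CPM with FGF2 and 7.31 and 9.30 CPM without FGF2, a log2 fold change of 0.93 (standard error 0.18, edgeR adjusted p = 8.1e-07). Sulf2 was more abundant, with 229 and 215 CPM against 187 and 192 CPM, and its log2 fold change was 0.23 (standard error 0.05, edgeR adjusted p = 1.7e-05). Both heparanase genes, Hpse and Hpse2, had 2 to 15 counts per library and were not tested.

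Of 12 genes for the release of core proteins from the membrane 8 were tested. Of these, 4 rose and 2 fell, or 75%, against 40.5% of all tested genes. Adam17, a protease that sheds syndecans, had 79.1 and 84.9 CPM with FGF2 and 54.3 and 55.6 CPM without FGF2, a log2 fold change of 0.58 (standard error 0.08, edgeR adjusted p = 1.9e-12). Adam10 and Mmp14, which also cleave membrane proteins, rose by 0.23 and 0.30. Gdpd2, a phosphodiesterase related to enzymes that cut GPI anchors, had 51.6 and 38.3 CPM against 28.2 and 28.6 CPM and rose by 0.66. Gpld1, a phospholipase that cuts GPI anchors, had 6.16 and 4.66 CPM against 13.3 and 9.86 CPM and fell by 1.10, and Gdpd5 fell by 0.28. Furin and Mmp2 did not pass (edgeR adjusted p = 0.86 and 0.45). DESeq2 gave adjusted p = 0.053 for Adam10 and 0.15 for Gdpd5. Without FGF2 replicate 2 the call of Adam10 was lost (0.14), as was that of Gdpd5 (-0.20), whose call was also lost without either library without FGF2.

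Of 7 cytoplasmic partners of syndecans 6 were tested, with 2 higher and 1 lower, and this share of 50% is near the 40.5% of all tested genes. Sdcbp, which encodes syntenin, had 123 and 130.0 CPM with FGF2 and 71.1 and 72.4 CPM without FGF2, a log2 fold change of 0.82 (standard error 0.07, edgeR adjusted p = 1.6e-32). Gipc1, a PDZ adaptor that binds syndecan-4, had 74.4 and 80.6 CPM against 35.2 and 38.4 CPM, a log2 fold change of 1.07 (standard error 0.09, edgeR adjusted p = 3.3e-34). Tiam1, a Rac activator, fell by 0.50. Cask, which binds syndecans at synapses, and Prkca, the kinase bound by syndecan-4, did not pass, with edgeR adjusted p = 0.35 and 0.95 and 95% intervals of -0.03 to 0.14 and -0.09 to 0.08.

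Of 13 genes for other proteins that can carry heparan sulfate 4 rose and 5 fell, or 69.2%, against 40.5% of all tested genes. Cd44, an adhesion receptor of which some splice forms carry heparan sulfate, had 327 and 336 CPM with FGF2 and 65.4 and 68.2 CPM without FGF2, a log2 fold change of 2.31 (standard error 0.05). The matrix proteoglycans agrin (Agrn) and perlecan (Hspg2) rose by 0.47 and 0.64. The neurexin genes Nrxn2 and Nrxn3, whose proteins are presynaptic, fell by 0.50 and 0.45, and the testicans Spock2 and Spock3 fell by 0.61 and 0.65. Nrp1, a receptor of semaphorins and VEGF, did not pass (edgeR adjusted p = 0.89). Srgn, the proteoglycan of secretory granules in blood cells, rose by 2.25, but it had 11 and 28 counts with FGF2 and 4 and 5 counts without FGF2. The call of Srgn was lost with DESeq2 (adjusted p = 0.062) and without FGF2 replicate 2 (1.49).

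Of 11 extracellular partners 3 rose and 2 fell, a share of 45.5% that is near the 40.5% of all tested genes. Pleiotrophin (Ptn), a ligand of syndecan-3, had 325 and 297 CPM with FGF2 and 299 and 322 CPM without FGF2 (edgeR adjusted p = 0.99, 95% interval -0.08 to 0.08). Its relative midkine (Mdk) rose by 0.28, a call that was lost with DESeq2 (adjusted p = 0.074) and without no FGF2 replicate 1 (0.25). Ptprz1, a phosphatase receptor of pleiotrophin, rose from 1155 and 1162 CPM to 1570 and 1592 CPM, by 0.45 on the log2 scale. Unc5d, a netrin receptor that can bind glypican-3, fell by 0.65, and Ptprf did not pass (0.09, edgeR adjusted p = 0.067). Among the FGF receptors themselves, Fgfr1 rose by 0.72 and Fgfrl1 rose by 0.84, Fgfr3 fell by 0.44 and Fgfr2 did not pass (-0.01). The other 3 of 7 genes were too low to test. The share called among the 4 tested was 75%, against 40.5% of all tested genes.

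**Figure D4:**
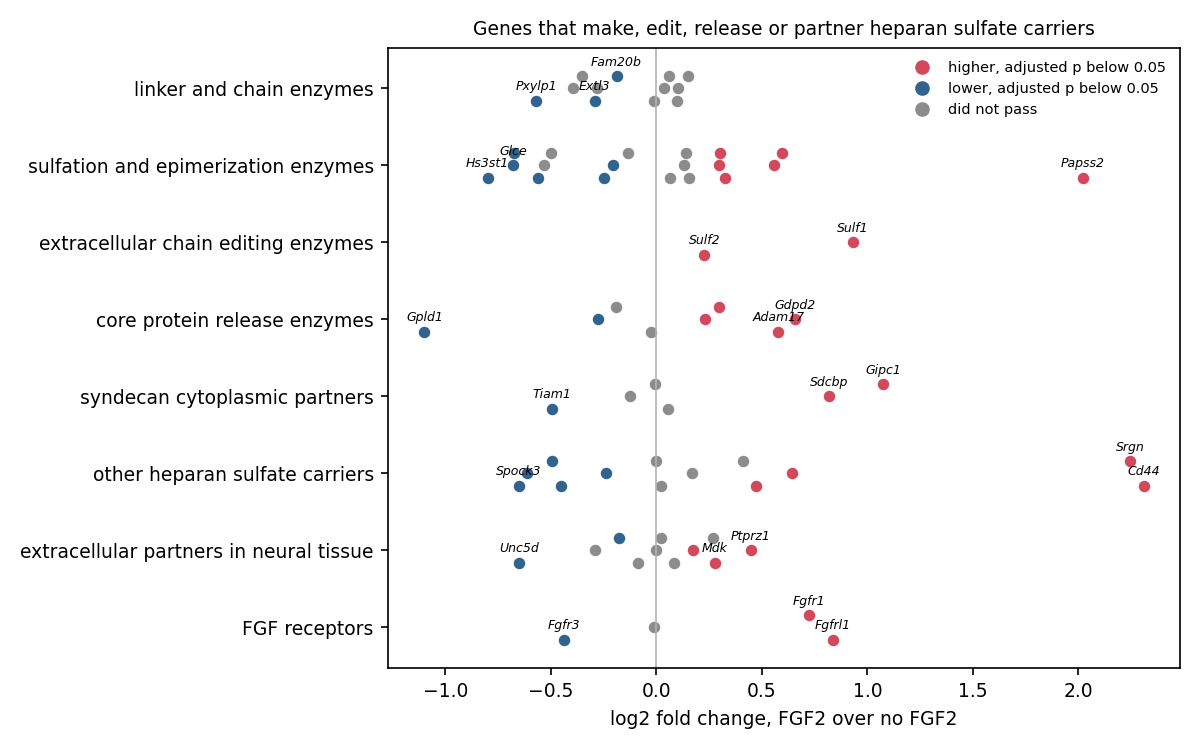
Log2 fold change (FGF2 over no FGF2) of the 75 tested genes of the 8 lists, with each list on its own line, genes that rose in red, genes that fell in blue and the others in grey, and up to 3 genes per list that passed named above their points. Papss2 at 2.02 and Cd44 at 2.31 lie far to the right, while the points of linker and chain enzymes stay between -0.57 and 0.15.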

How the data were processed

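Total RNA of P0 mouse PFC cultures was sequenced in 4 bulk libraries. The authors mapped clean reads to mm10 with HISAT2 2.1.0, filtered them in Samtools at a mapping quality of 20, and took gene counts from HTSeq 0.11.2. The deposited values are these raw counts. The annotation release and strand setting are not given in the sources used here. The libraries with FGF2 held 9166432 and 9907613 counts on genes, and those without held 10460236 and 10799886. The 5 tally entries were left out, of which reads in no feature took 43.2% to 45.9% and ambiguous reads 1.47% to 1.76%. At these depths 3 counts correspond to 0.276 to 0.330 CPM, which covers counting error only. Of 55421 identifiers 55240 matched GENCODE M21, which gave symbols, positions and exon lengths.

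Genes were tested with edgeR 4.0.16 in R 4.3.3 (TMM, filterByExpr, robust quasi-likelihood, Benjamini-Hochberg over 17144 genes), with a 95% interval from the moderated standard error. DESeq2 1.42.0 and limma-voom 3.58.1 served as alternatives, and the fits were tested on simulated counts. Of 200 genes changed 2-fold, drawn from all tested genes, edgeR recovered 154 and DESeq2 recovered 126. At 1.2-fold they recovered 25 and 6 of 200. Only 200 of 17144 genes were changed there, against 6948 genes called in the libraries themselves. How many 1.2-fold changes were missed in the libraries was thus not tested. The replicates of a group differed beyond sampling noise (chi-square per degree of freedom 2.29 with FGF2 and 1.76 without). Transcripts were compared with BLAST 2.17.0, in which a stretch of 120 bases of Sdc2 was 95.8% identical to Gm32618.

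The 10 genes and all lists were chosen with earlier results of these data known. Within each list, the text names the 3 genes with the largest change that passed (at least 1 CPM, no overlap of the groups) and the 2 most abundant that did not. A further 17 genes that passed, and Ndst4, Hs3st3b1, Hs3st4 and Hs3st5, were named after their values were seen. A gene that the rule names is not reported here.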

Additional observations from a re-analysis of the deposited data

How the results depend on the processing

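The direction and call of Sdc3, Sdc4 and Gpc1 held under RLE and total count scaling, no filter on low counts, at least 10 counts in every library, DESeq2, limma-voom, a replicate block, an adjusted p threshold of 0.01 and each library left out. With a library left out, their log2 fold changes were -0.42 to -0.35, 0.77 to 0.84 and -0.43 to -0.34. Sdc1 lost its call without the filter (-0.52), with DESeq2 (-0.53), with limma-voom (-0.52), at 0.01 (-0.53) and in every fit without 1 library (-0.63 to -0.43). Sdc2 lost it with total count scaling (0.17), DESeq2 (0.19) and 0.01 (0.19), and ranged from 0.16 to 0.22 with a library left out. Gpc4 lost it with DESeq2 (0.24) and ranged from 0.17 to 0.30. Gpc5 ranged from 0.25 to 0.61, Gpc3 from -0.51 to -0.16, Gpc6 from -0.18 to -0.08 and Gpc2 from -0.035 to 0.61. The cause was not tested, other than that a fit without 1 library has fewer samples.

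Over all tested genes, 6948 were called (3541 higher, 3407 lower), against 4007 with DESeq2 (2068 higher, 1939 lower), of which 4005 were shared in the same direction. With a library left out, 5212 to 6199 were called (2645 to 3145 higher, 2558 to 3054 lower). The replicate numbers of the titles share only a number. The deviations of replicate 1 from its group mean had a correlation of 0.0021 between the groups, over 17144 genes. With a replicate block 6816 genes were called, and the block changed no call of the 10 genes. Of the list counts, core protein release enzymes called lower went from 2 to 1 with DESeq2 and ranged from 1 to 2 with a library left out, and syndecan partners called lower ranged from 1 to 2.

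With the longest transcript as length, the shares with FGF2 were 0.816% for Sdc1, 8.98% for Sdc2, 23.1% for Sdc3, 43.3% for Sdc4, 7.32% for Gpc1, 0.591% for Gpc2, 11.5% for Gpc4, 1.51% for Gpc5 and 1.31% for Gpc6. Without FGF2 they were 8.93% for Sdc2, 34.0% for Sdc3, 28.1% for Sdc4, 10.8% for Gpc1, 11.03% for Gpc4, 1.26% for Gpc5 and 1.62% for Gpc6.

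Of the 23 pathway genes that the rule named and that passed, 20 kept direction and call in all alternatives. Of the 12 that did not pass, 6 did so. The others changed sign near 0. Ptn was at 0.0037 without a filter and 0.0017 with at least 10 counts, and from -0.071 to 0.061 with a library left out. Prkca was at 0.00037 without a filter. With a library left out, Furin ranged from -0.11 to 0.046, Ndst3 from -0.012 to 0.29, Nrp1 from -0.026 to 0.064 and Fgfr2 from -0.051 to 0.019. Of the 17 genes that passed and were named afterwards, 10 kept direction and call in all alternatives.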
